A study of Mus musculus and Rattus norvegicus with 30 samples.

Results

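Calca, Calcb, Tac1, Sst, Nppb and Nmb encode neuropeptides of sensory neurons, and their transcripts were counted in RNA from whole dorsal root ganglia (DRG), which hold the cell bodies of those neurons and lie along the spinal cord. The genes were taken by symbol from a mouse table of 54315 features and a rat table of 39281 features. All 6 had counts in mouse, and 5 of the 6 had counts in rat, where Sst was listed at 0 in every library. Mouse libraries, named here by their sample number, came from the inbred strains BALB/c and B10.D2 of both sexes, 28 days after sham surgery or spared nerve injury (SNI), a surgery that cuts the common peroneal and sural nerves and keeps the tibial nerve. Each mouse library held the L3 and L4 DRG of 1 animal, so that SNI ganglia held both cut and intact neurons. There were 6 BALB/c sham libraries (3 male, 3 female), 4 BALB/c SNI (2 and 2), 5 B10.D2 sham (3 male, 2 female) and 5 B10.D2 SNI (2 male, 3 female). Rat libraries came from the L5 DRG of male Wistar rats 21 days after transection of the L5 spinal nerve (SNT) or sham surgery, with 4 libraries per group and the ganglia of 3 animals pooled in each. The strains are described by the study as differing in mechanical hypersensitivity after nerve injury. The questions addressed were how strongly each peptide gene was transcribed, whether injury changed it, and whether the change differed between strains. Mouse and rat differed in injury, segment, time and RNA selection at once (ribosomal RNA depletion in mouse, poly(A) selection in rat), so these cannot be told apart and no test between species was made.

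Peptidergic nociceptors are small-diameter neurons that detect damaging heat, pressure and chemicals and release peptides from large dense-core vesicles, both in the spinal cord and in the skin. Calca and Calcb encode the α and β forms of calcitonin gene-related peptide (CGRP), which dilates blood vessels and acts on a receptor made of Calcrl and Ramp1; by alternative splicing Calca also encodes calcitonin, and counts per gene do not separate these products. Tac1 encodes substance P and neurokinin A, which act on Tacr1 and Tacr2. Sst encodes somatostatin, an inhibitory peptide that acts on the receptors Sstr1 to Sstr5, and Nppb encodes B-type natriuretic peptide, which signals itch through Npr1; both mark a class of itch neurons. Nmb encodes neuromedin B, a bombesin-like peptide that acts on Nmbr and takes part in itch and pain. In RNA of whole ganglia, fewer cells of a type and less RNA per cell cannot be told apart.

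On mm10, Calca (ENSMUSG00000030669) lies at chr7:114631478-114636357 on the minus strand and Calcb (ENSMUSG00000030666) at chr7:114718643-114723365 on the plus strand. The CGRP-coding stretch of both genes is printed because the genes are close copies, so that reads could have been placed on either one. In each gene the stretch runs from exon 3 to exon 4 of a transcript with 5 exons, and is coding throughout. Of the 170 bases aligned, 159 (93.5%) were identical, and capitals mark the 11 that differ.
Calca, minus strand, chr7:114632458-114634495, intron left out: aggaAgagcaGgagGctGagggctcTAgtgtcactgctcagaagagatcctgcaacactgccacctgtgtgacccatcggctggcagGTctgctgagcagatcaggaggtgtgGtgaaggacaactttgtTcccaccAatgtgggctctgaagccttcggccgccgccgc
Calcb, plus strand, chr7:114720187-114722116, intron left out: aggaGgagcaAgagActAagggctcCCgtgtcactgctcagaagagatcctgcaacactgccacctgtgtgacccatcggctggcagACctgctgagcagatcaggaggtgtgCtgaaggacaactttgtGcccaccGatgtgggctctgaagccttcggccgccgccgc
The longest identical run between any annotated transcripts of the genes was 61 bases. Every stretch of 100 bases, the read length, differed between the genes at 3 or more positions when aligned without gaps. Tac1 (ENSMUSG00000061762) lies at chr6:7554879-7565834 on the plus strand, Sst (ENSMUSG00000004366) at chr16:23889573-23890958 on the minus strand, and Nppb (ENSMUSG00000029019) at chr4:147985788-147987205 on the plus strand. Nmb (ENSMUSG00000025723) lies at chr7:80902227-80905076 on the minus strand and overlaps Sec11a on the same strand, which shares 163 of its 793 exonic bases (20.6%), so reads from that stretch were uncertain.

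RefSeq promoter sequences (GRCm38.p6, 250 bases before to 50 after the annotated start) were found for 5 of the 6 genes, all but Calcb. They were searched on both strands for the cyclic AMP response element, because Sst is a textbook gene of that element. The full element TGACGTCA was in 588 of 32851 mouse promoters (1.79%) and, among the 5, in Sst. Its shorter core TGACG, which the full element contains, was in 20.8% of all promoters and in 3 of the 5 (Calca, Tac1 and Sst). The AP-1 element TGACTCA was in 5.20% of all promoters and in none of the 5. The matches are printed with the element in capitals, each on the strand of its gene, and are a description of letters only. Distances are counted from the RefSeq start, which in Sst and Tac1 lies inside the gene span given above, so that some matches fall within that span.
Sst, 48 bases before the start, chr16:23890874-23890903: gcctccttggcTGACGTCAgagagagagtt
Calca, 65 bases before the start, chr7:114636404-114636433: aagcacagaggTGACGcaatctgtctgggg
Tac1, 197 bases before the start, core on the opposite strand, chr6:7554853-7554882: ccctaaaattgCGTCAtttcgaacacaatt
Tac1, 43 bases before the start, core on the opposite strand, chr6:7555007-7555036: ctctacaggctCGTCAcgcctgagataaat

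Library totals were 29989963 to 41881331 counts in mouse and 11954612 to 17887909 counts in rat. Levels are given as CPM, the count per 1000000 counts of the library total scaled with edgeR's TMM factor. A count of 3, taken as the floor of detection, was 0.0724 to 0.0973 CPM in mouse and 0.163 to 0.249 CPM in rat. Neuronal genes marked the tissue as neuronal: 8 pan-neuronal genes summed to 6437 to 7740 CPM in the mouse libraries, and the 4 of 7 that had counts in rat summed to 3826 to 7096 CPM. These sums do not tell DRG from other neuronal tissue. In rat, 3 features of that list (Rbfox3, Uchl1 and Tubb3) were listed at 0 in every library, as was Sst, and these zeros were not read as levels. In rat, SNT library 1 and sham library 4 stood apart from their groups. On the first principal component, which held 70.1% of the variance, the other 3 sham libraries lay between -52.9 and -39.6 and the other 3 SNT libraries between 34.0 and 54.7, while sham library 4 lay at -7.23 and SNT library 1 at 1.27. The 7 injury markers with counts (Gal, Vip, Npy, Sprr1a, Sox11, Jun and Csf1) summed to 301 to 335 CPM in sham libraries 1 to 3, 772 CPM in sham library 4, 1072 CPM in SNT library 1 and 1210 to 1586 CPM in SNT libraries 2 to 4. The rat results of the peptide genes and gene lists are therefore also given without these libraries.

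In the mouse ganglia the 6 genes spanned a wide range of levels. Per kilobase of exon, in BALB/c sham, Calca reached 584 ± 34.1 CPM per kb (SD, n = 6), rank 17 of 21734 protein-coding genes. Nmb stood at 92.3 ± 5.40, Calcb at 79.1 ± 9.20 and Tac1 at 42.1 ± 8.30 CPM per kb. Nppb at 7.07 ± 0.454 and Sst at 2.60 ± 0.553 CPM per kb were far lower. Calca exceeded every other member in 20 of 20 libraries. Nmb exceeded Calcb in 16 of 20, and this pair overlapped between libraries (lowest Nmb 67.8, highest Calcb 94.3 CPM per kb). With the longest transcript as length in place of all exons, Calcb exceeded Nmb in 8 of 20 libraries and both means in BALB/c sham were 104 CPM per kb, so the order of these 2 genes was not settled. Calcb exceeded Tac1, Tac1 exceeded Nppb and Nppb exceeded Sst in 20 of 20 libraries each, when lengths were taken over all exons. The order of Calcb and Tac1 also depended on the length. With the longest transcript, the highest Tac1 value in B10.D2 SNI (106.9 CPM per kb) lay above every Calcb value of that group (highest 105.1). Together the 6 genes took 0.130% ± 0.00682 of all counts in BALB/c sham (SD, n = 6), 0.123% ± 0.00644 in BALB/c SNI (n = 4), 0.132% ± 0.0155 in B10.D2 sham (n = 5) and 0.120% ± 0.0109 in B10.D2 SNI (n = 5).

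The CGRP and tachykinin transcripts were not called after SNI in either strain, and their groups overlapped. Calca in the BALB/c sham libraries ran from 908 CPM (lowest) through 1007 (median) to 1047 (highest), and the 4 SNI libraries gave 872, 854, 920 and 960 CPM. In B10.D2 the sham libraries gave 978, 919, 924, 917 and 1166 CPM and the SNI libraries 771, 854, 800, 965 and 892 CPM. In both strains there was an overlap, although 2 of 4 BALB/c and 4 of 5 B10.D2 SNI libraries lay below every sham library. For SNI against sham, the log2 fold change was -0.13 (SE 0.064, adjusted p = 0.245, edgeR's quasi-likelihood test with Benjamini-Hochberg adjustment over 24685 features, as for all tests of mouse features below) in BALB/c, with a 95% interval of -0.26 to 0.01. In B10.D2 it was -0.18 (SE 0.063, adjusted p = 0.130), with an interval of -0.31 to -0.05. Neither passed the threshold of 0.05 that makes a feature called.

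Calcb lay at 88.4 to 119 CPM in the BALB/c sham libraries, with a median of 96.1, and at 90.3, 105, 102 and 107 CPM in the SNI libraries. In B10.D2 its levels were 98.7, 100, 94.4, 84.6 and 118 CPM in sham and 73.1, 95.1, 88.3, 101 and 96.4 CPM in SNI. The groups overlapped almost wholly, and the log2 fold changes were 0.02 (SE 0.092, adjusted p = 0.942) for BALB/c and -0.11 (SE 0.091, adjusted p = 0.616) for B10.D2. Tac1, the substance P gene, was the most variable of the abundant members: 110 to 187 CPM in BALB/c sham (median 137), 108, 114, 140 and 158 CPM in BALB/c SNI, 136, 147, 164, 162 and 223 CPM in B10.D2 sham and 138, 211, 144, 201 and 156 CPM in B10.D2 SNI. No injured group stood clear of its sham group. Its log2 fold change was -0.14 (SE 0.157, adjusted p = 0.664, 95% interval -0.46 to 0.19) in BALB/c and 0.05 (SE 0.154, adjusted p = 0.911, interval -0.27 to 0.37) in B10.D2.

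Nppb, the itch peptide, lay higher after SNI in both strains, short of the threshold. Its BALB/c sham libraries gave 4.98 (lowest), 5.60 (median) and 5.88 CPM (highest), and the 4 SNI libraries gave 7.10, 6.29, 7.47 and 6.32 CPM. These groups did not overlap. In B10.D2 the sham libraries gave 6.11, 5.76, 5.84, 7.13 and 7.85 CPM and the SNI libraries 6.87, 8.50, 6.93, 8.83 and 7.87 CPM, which overlapped, with 3 of 5 SNI libraries above every sham library. Injury against sham gave a log2 fold change of 0.30 (SE 0.102, adjusted p = 0.0704, 95% interval 0.09 to 0.51) in BALB/c and 0.25 (SE 0.100, adjusted p = 0.176, interval 0.05 to 0.46) in B10.D2. Without B10.D2 sham library 88, which shares the estimate of spread, the BALB/c value was called (0.30, adjusted p = 0.0495). Sst, its companion in itch neurons, rested on 40 to 147 counts per library and did not share this pattern: 1.19 to 2.27 CPM (median 1.96) in BALB/c sham, 2.24, 2.21, 2.46 and 1.39 CPM in BALB/c SNI, 2.48, 2.71, 2.69, 3.38 and 1.62 CPM in B10.D2 sham and 2.51, 3.75, 2.50, 2.25 and 2.18 CPM in B10.D2 SNI. Its log2 fold change was 0.15 (SE 0.170, adjusted p = 0.668) in BALB/c and -0.04 (SE 0.162, adjusted p = 0.937) in B10.D2, with 95% intervals of -0.21 to 0.50 and -0.38 to 0.30. Of 5 other markers of these itch neurons, Nts (neurotensin) rose in both strains, by 3.01 ± 0.260 (SE) on the log2 scale in BALB/c (2.77 ± 0.272 in B10.D2), and Il31ra, Osmr, Cysltr2 and Htr1f were not called.

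Nmb lay lower after SNI in both strains, also short of the threshold. Its BALB/c sham libraries gave 67.8 (lowest), 73.2 (median) and 78.1 CPM (highest), and the SNI libraries 66.8, 58.9, 63.0 and 66.1 CPM, so that all 4 SNI libraries lay below every sham library. In B10.D2 the sham libraries gave 85.8, 80.5, 72.8, 62.7 and 89.5 CPM and the SNI libraries 53.8, 62.2, 61.4, 78.8 and 65.4 CPM, with an overlap. The log2 fold change was -0.20 (SE 0.079, adjusted p = 0.113, 95% interval -0.37 to -0.04) in BALB/c and -0.25 (SE 0.078, adjusted p = 0.0720, interval -0.41 to -0.09) in B10.D2. The B10.D2 value was called without SNI library 89 (-0.32, adjusted p = 0.0203), without sham library 77 (-0.32, adjusted p = 0.0254) and in 2 other settings.

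**Figure D1:**
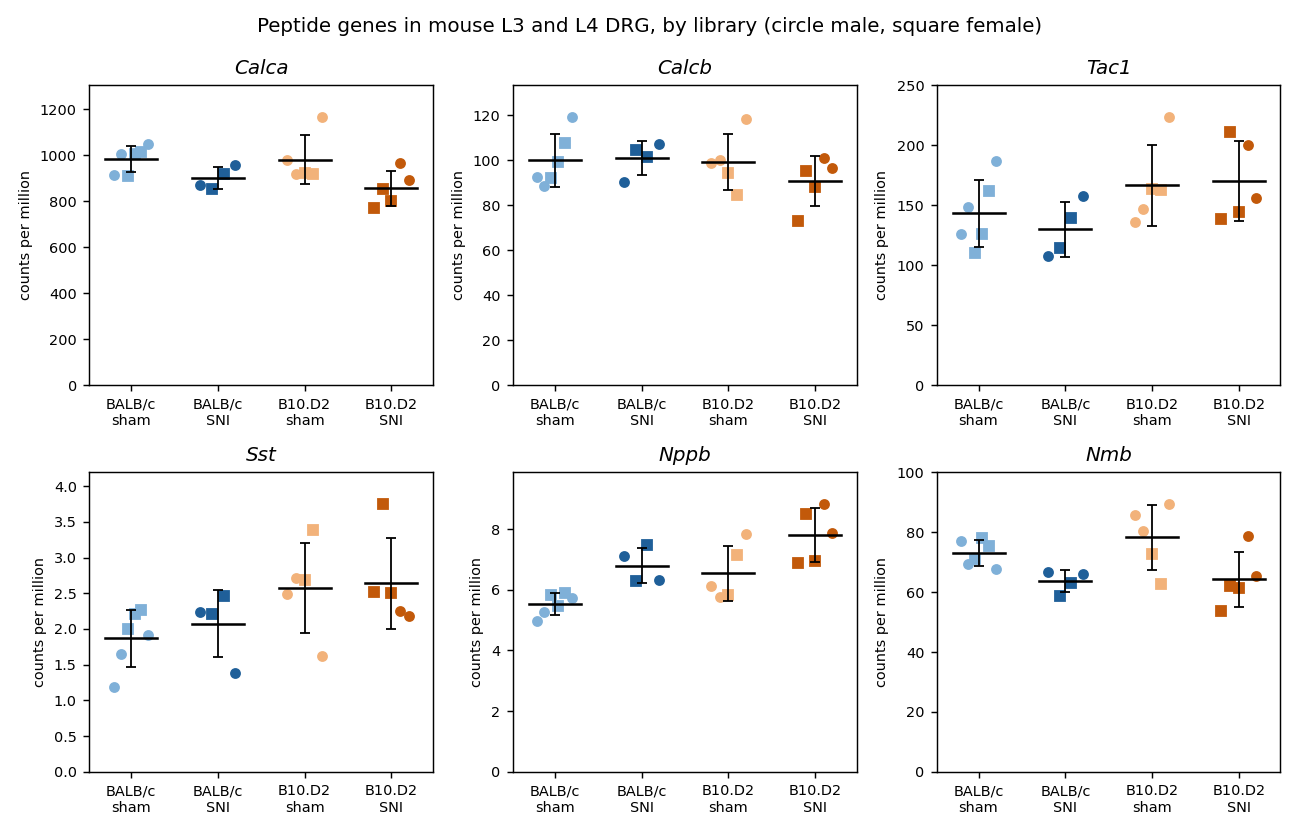
Levels of the 6 genes in the 20 mouse libraries, in CPM on linear axes that start at 0; each point is 1 animal (circle male, square female), lines are group means and bars are SD. The BALB/c SNI libraries lie above all BALB/c sham libraries for Nppb (6.29 to 7.47 against 4.98 to 5.88 CPM) and below them for Nmb. Neither gene was called, and the other SNI groups overlap their sham groups.

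In all, edgeR called 0 of the 6 members in BALB/c, where 9.69% of 24685 features were called, and 0 of 6 in B10.D2, where 4.58% were. At an unadjusted p under 0.05 there were 2 of 6 in BALB/c (Nppb and Nmb), beside 5739 of 24685 features. In B10.D2 there were 3 of 6 (Calca, Nppb and Nmb), beside 4149 of 24685 features. DESeq2 called 0 in BALB/c and 1 in B10.D2 (Nmb, adjusted p = 0.0353). The median log2 fold change of the 6 was -0.05 in BALB/c and -0.08 in B10.D2, beside 0.00 and 0.01 over all features. Over the 6 members in both strains, the 95% intervals reached no lower than -0.46 and no higher than 0.51. The share of all features whose BALB/c groups also lacked overlap is not given here. The lack of overlap in Nppb and Nmb therefore has no background to be read against. The injury markers rose in 8 of 8 tested genes in BALB/c and 7 of 8 in B10.D2 (all but Jun), with medians of 2.39 and 1.39 on the log2 scale; Atf3, a transcription factor of injured neurons, rose by 3.24 ± 0.292 (SE) and 2.69 ± 0.304, and the neuropeptide gene Gal (galanin) by 4.18 ± 0.254 and 1.80 ± 0.261.

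Markers of the cell types that could carry the peptides, and of other cells in the ganglion, moved in part with SNI. Among other markers of peptidergic nociceptors, Gfra3, a receptor of artemin, rose by 0.59 ± 0.133 (SE) on the log2 scale in BALB/c (0.56 ± 0.132 in B10.D2). Kit, Trpv1 and Fam19a1 of the same list were not called in either strain, so the list did not rise as a whole. The neurofilament-rich markers Pvalb and Nefh fell in both strains, and of 8 pan-neuronal genes Snap25 alone did. Of 5 macrophage markers Cd68, Csf1r and Cx3cr1 rose in BALB/c, while in B10.D2 edgeR called 0, with 4 at an unadjusted p under 0.05 and 1 by DESeq2. The part of cell composition in the members' values was not tested.

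The effect of SNI on the members was not found to differ between strains. For the strain by SNI interaction, edgeR called 0 of 6 members and 0.0243% of all features, and DESeq2 called 0 of 6 members. At an unadjusted p under 0.05 there were 0 of 6 members, beside 1073 of 24685 features. The interaction estimates, B10.D2 minus BALB/c, ran from -0.19 for Sst to 0.19 for Tac1, and the widest intervals were -0.68 to 0.30 and -0.27 to 0.65. Among the 8 injury markers tested, Gal alone had a called interaction (-2.37, SE 0.358, adjusted p = 0.0140).

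Sst differed between strains in sham animals. It lay at 2.58 ± 0.633 CPM in B10.D2 sham (SD, n = 5) and 1.87 ± 0.399 CPM in BALB/c sham (n = 6), a log2 difference of 0.50 (SE 0.157, adjusted p = 0.0265, 95% interval 0.17 to 0.83), with 4 of 5 B10.D2 libraries above every BALB/c library. It was the only one of 6 members called, where 21.6% of features were. The call was lost without BALB/c sham library 50 (0.43, adjusted p = 0.0669) and without B10.D2 sham library 58 (0.47, 0.0604), 60 (0.43, 0.0750) or 77 (0.45, 0.0798), and without the sex term (0.46, adjusted p = 0.108). Between SNI animals the difference was 0.31 (SE 0.174, adjusted p = 0.237). Within males alone the sham difference was 0.51 and within females alone 0.50, called in neither (adjusted p = 0.254 and 0.166). Of its 4 receptor genes tested, 2 differed: Sstr2 was higher in B10.D2 by 1.14 ± 0.176 (SE) in sham and 1.25 ± 0.198 in SNI on the log2 scale, and Sstr4 by 1.04 ± 0.203 and 0.71 ± 0.220, all called. Sstr1 (0.16 and 0.38, adjusted p = 0.517 and 0.124) and Sstr5 (-0.38 and -0.36, adjusted p = 0.291 and 0.385) were not. Over the receptor genes of all members, 4 of 16 tested were called in sham, with Ramp2 and Nmbr also higher in B10.D2. In SNI 4 of 16 were called, with Crcp also higher and Calcrl lower. These counts stand beside 21.6% of all features called in sham and 20.8% in SNI. A link between Sst and its receptors was not tested.

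The other members did not differ between strains past the threshold. In sham, Nppb was 0.24 higher in B10.D2 on the log2 scale (SE 0.096, adjusted p = 0.0791; adjusted p = 0.0489 without B10.D2 sham library 60), Tac1 0.21 (SE 0.146, adjusted p = 0.359), and Calca, Calcb and Nmb lay between -0.02 and 0.07. In SNI, edgeR called 0 of 6 where 20.8% of features were called, and DESeq2 called 0. At an unadjusted p under 0.05 there was 1 of 6 members, beside 7917 of 24685 features. That member was Tac1, 170 ± 33.5 CPM in B10.D2 SNI (SD, n = 5) and 130 ± 23.1 CPM in BALB/c SNI (n = 4), a log2 difference of 0.40 (SE 0.163, adjusted p = 0.0911, 95% interval 0.06 to 0.74), called when no filter on low counts was set (adjusted p = 0.0229). Between the sexes edgeR called 0 of 6 members and 0.243% of features, and DESeq2 called 0 members. At an unadjusted p under 0.05 there were 3 of 6 members, beside 2899 of 24685 features. The log2 difference, female minus male, was 0.41 for Sst (SE 0.117, adjusted p = 0.156), -0.16 for Nmb (SE 0.055, adjusted p = 0.246) and -0.10 for Calca (SE 0.044, adjusted p = 0.367).

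In rat, Nmb and Calcb fell after spinal nerve transection, and 3 of 4 SNT libraries were also far below sham for Calca and Tac1. Nmb was 75.2, 95.03, 83.6 and 48.7 CPM in sham libraries 1 to 4 and 38.94, 2.94, 4.11 and 5.31 CPM in SNT libraries 1 to 4. These groups did not overlap. The log2 fold change of SNT against sham was -2.57 (SE 0.734, adjusted p = 0.0296, 95% interval -4.20 to -0.93, edgeR over 13690 features, as for all rat tests below). Calcb was 229.1, 210, 221 and 130 CPM in sham and 141, 19.5, 24.1 and 51.9 CPM in SNT. Its log2 fold change was -1.74 (SE 0.550, adjusted p = 0.0411, 95% interval -2.97 to -0.51). SNT library 1 lay above sham library 4, so these groups overlapped.

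Calca was 936, 1195, 1169 and 781 CPM in the rat sham libraries and 868, 36.3, 59.8 and 206 CPM in the SNT libraries. SNT library 1 held 85.0% of the mean sham level and libraries 2, 3 and 4 held 3.56%, 5.86% and 20.2%. With this spread the log2 fold change of -1.80 (SE 0.817, 95% interval -3.62 to 0.02) had an adjusted p of 0.121. Tac1 behaved alike, at 295, 322, 343 and 219 CPM in sham and 244, 40.5, 45.3 and 90.4 CPM in SNT. The estimate for Tac1 was -1.49 on the log2 scale (SE 0.506, adjusted p = 0.0521, interval -2.62 to -0.36). SNT library 1 held 82.6% of the mean sham level of Tac1, and libraries 2 to 4 held 13.7% to 30.7%. Nppb was at the edge of detection in rat, with 10, 15, 14 and 14 counts in sham and 11, 17, 1 and 14 counts in SNT, that is 0.83 to 0.997 CPM in sham and 0.0556 to 0.926 CPM in SNT. Its log2 fold change was -0.50 (SE 0.511, adjusted p = 0.479, interval -1.64 to 0.63), and a change was not detectable at this depth.

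**Figure D2:**
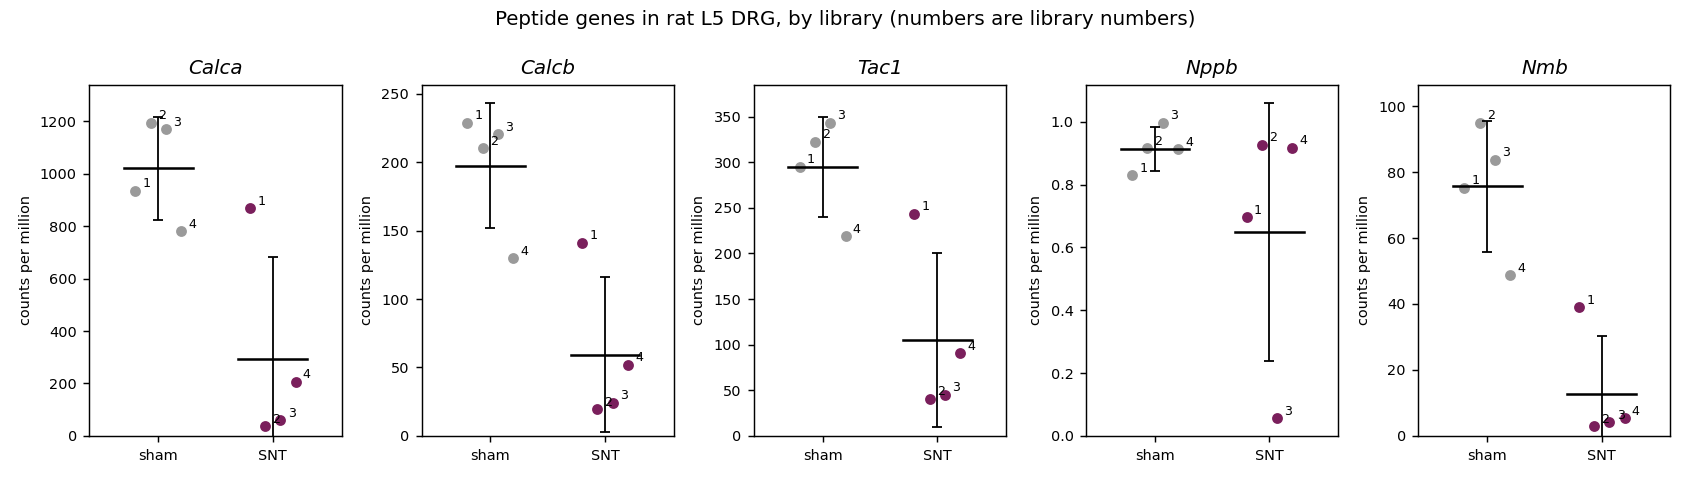
Levels of the 5 genes with counts in the 8 rat libraries, in CPM on linear axes from 0; points carry the library number, lines are group means and bars are SD, cut at 0 where they pass it. SNT library 1 lies near the sham libraries for Calca, Calcb and Tac1, and SNT libraries 2, 3 and 4 lie at 36.3 to 206 CPM for Calca.

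The rat comparison thus called 2 of 5 members tested, both lower, where 27.4% of features were called, and DESeq2 called the same number. The share of all features without overlap between the rat groups is not given here. Without SNT library 1 there were 4 of 5: Nmb -4.20 (SE 0.285, adjusted p = 0.000148), Calca -3.34 (SE 0.551, adjusted p = 0.00226), Calcb -2.63 (SE 0.350, adjusted p = 0.000935) and Tac1 -2.33 (SE 0.292, adjusted p = 0.000748). Against the sham mean, the remaining 3 SNT libraries were 18.4-fold lower for Nmb, 10.1-fold for Calca, 6.21-fold for Calcb and 5.02-fold for Tac1. Leaving out sham library 4 as well gave -4.36, -3.45, -2.79 and -2.44 in the same order, all called. That pair of libraries was chosen after seeing the data. Calls rose over the whole table too, from 3753 features in the main fit to 6100 without both libraries. Without SNT library 1 alone the number of features called, given below, was higher as well. Leaving out sham library 4 alone called Nmb (adjusted p = 0.0212), Calcb (0.0284) and Tac1 (0.0404). Leaving out any one of the other 6 libraries lost every call, with adjusted p-values of 0.0635 to 0.0748 for Nmb and 0.0817 to 0.0961 for Calcb.

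**Figure D3:**
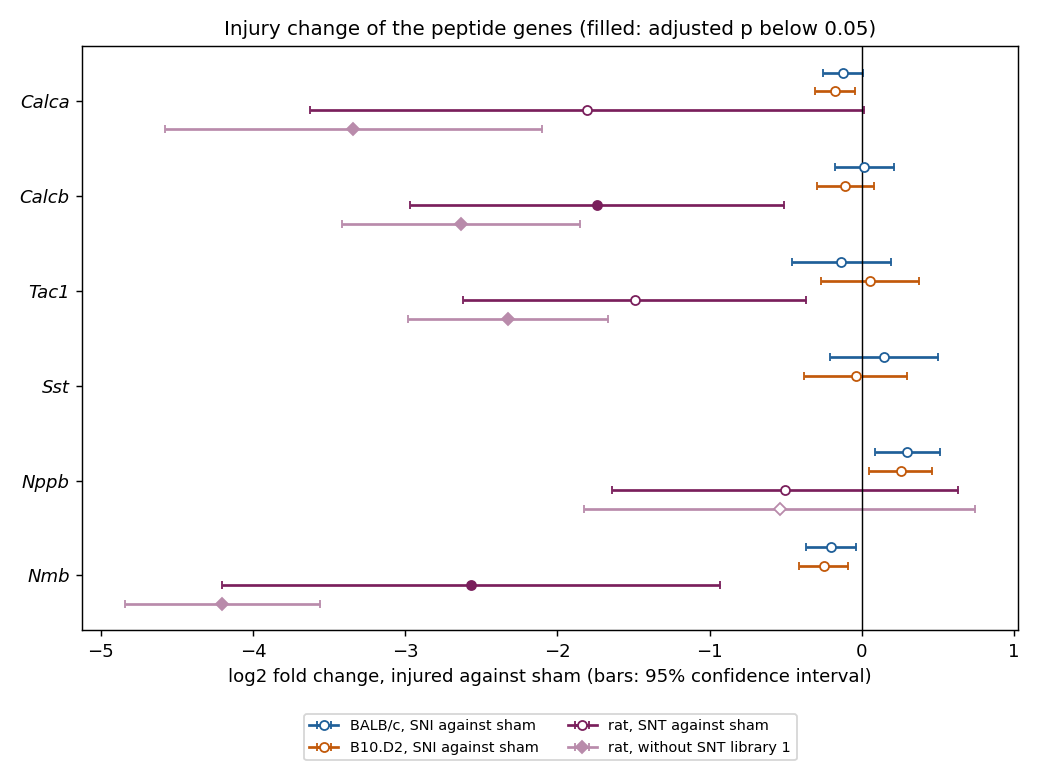
Log2 fold change of injured against sham libraries (horizontal axis) for each gene, with 95% confidence intervals; filled symbols have an adjusted p under 0.05. The mouse values lie between -0.25 and 0.30, and the rat values of Calca, Calcb, Tac1 and Nmb lie at -1.49 or lower, with narrower intervals without SNT library 1.

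The genes that moved in rat included markers of several neuron classes, and these values stand beside the peptide result. Of 4 pan-neuronal genes tested, 3 fell in SNT (Isl1 -1.09, Elavl4 -0.71 and Avil -1.42 on the log2 scale) and Prph did not pass (0.04, adjusted p = 0.887). The pan-neuronal sum was 3826 to 6489 CPM in SNT and 4858 to 7096 CPM in sham, so it overlapped. Among 3 tested genes of the itch neurons that carry Nppb, Il31ra fell (-1.94) and Osmr rose (0.38). Of 4 genes of other nociceptors tested, 3 fell (P2rx3, Mrgprd and Plxnc1), as did both tested genes of large neurofilament-rich neurons, Pvalb and Ntrk3. Of the markers of peptidergic neurons, Kit, Trpv1 and Gfra3 were listed at 0. The macrophage gene Cx3cr1 rose by 1.35, from 17.7 ± 7.10 to 45.0 ± 5.62 CPM (SD, n = 4 each), and the other 4 macrophage genes were listed at 0. The Schwann cell gene Mag rose by 1.55, of 2 tested, and Slc1a3 of satellite glia fell by 0.45, the only one of its list that was tested. Dcn of fibroblasts did not pass (0.66, adjusted p = 0.0735). Without SNT library 1 and sham library 4 the genes named here as higher or lower were called in the same direction, the Schwann cell gene Prx was called too (0.68, adjusted p = 0.0165), and Il31ra was at -2.57, Pvalb at -4.94 and Cx3cr1 at 1.70. In that setting 6100 features were called over the whole table, beside 3753 in the main fit. The part of cell composition in the fall of the peptides was not tested.

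Calcb counts were a larger share of Calca counts in 3 of 4 SNT libraries than in any sham library, but the shift was not separable from the spread between libraries. Calcb counts were 24.5%, 17.6%, 18.9% and 16.6% of Calca counts in rat sham libraries 1 to 4 and 16.3%, 53.7%, 40.3% and 25.2% in SNT libraries 1 to 4. The mean log2 ratio was 0.68 higher in SNT (SE 0.398, n = 4 and 4, exact two-sided permutation test p = 0.20, adjusted p = 0.286 over 3 comparisons). In BALB/c the share was 10.2% ± 0.861 in sham (SD, n = 6) and 11.2% ± 0.774 in SNI (n = 4), a log2 difference of 0.14 (SE 0.071, exact permutation p = 0.0857, adjusted p = 0.257). In B10.D2 it was 10.1% ± 0.596 and 10.6% ± 0.673 (n = 5 each), a difference of 0.07 (SE 0.057, exact permutation p = 0.286, adjusted p = 0.286). Without SNT library 1 the rat difference was 0.98 (exact permutation p = 0.0571), and without sham library 4 it was 0.61 (exact permutation p = 0.343). The smallest p the full designs allow is 0.0286 in rat, 0.00476 in BALB/c and 0.00794 in B10.D2.

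**Figure D4:**
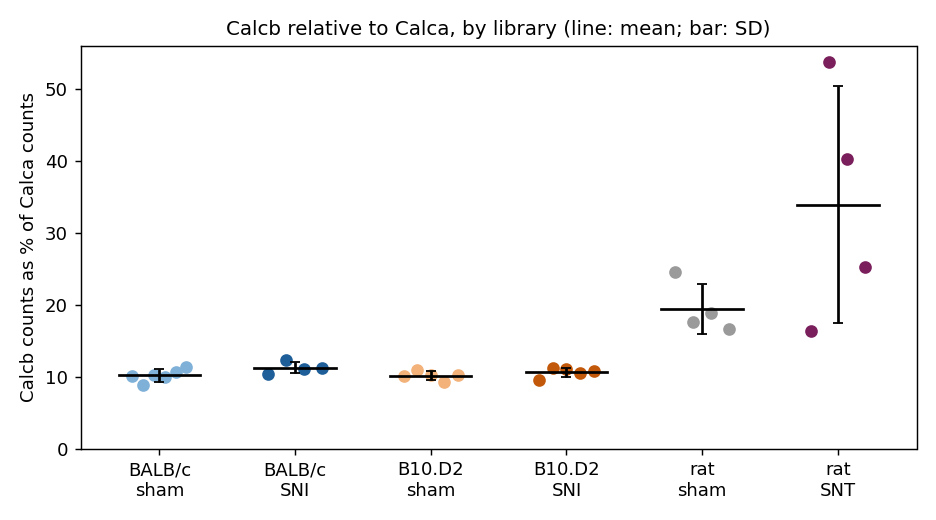
Calcb counts as a percentage of Calca counts in each library (vertical axis from 0) by group; lines are group means and bars SD. Mouse libraries lie between 8.77% and 12.2%, and rat SNT libraries spread from 16.3% to 53.7%.

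Transcripts assembled by the study from reads outside known gene models lay near 3 of the 6 genes, by their positions in the study's annotation. On mm10, LncRNA1441 (chr7:114631428-114631907, plus strand) and LncRNA1442 (chr7:114635603-114636347, plus strand) ran opposite to Calca and shared 386 and 160 bases with its exons. The study's list of transcripts antisense to pain genes gives LncRNA1442 a longer span, which ends near Calcb. LncRNA1441 and LncRNA1442 are described here by the annotation. They were scarce, at 0.776 ± 0.204 and 2.44 ± 0.397 CPM in BALB/c sham (SD, n = 6), and neither was called in either strain: LncRNA1441 gave -0.70 (SE 0.373, adjusted p = 0.274) for BALB/c and 0.04 (SE 0.343, adjusted p = 0.971) for B10.D2, and LncRNA1442 gave -0.35 (adjusted p = 0.108) and -0.25 (adjusted p = 0.334). LncRNA5463, on the strand of Calca and 1355 bases from it, had 1 to 11 counts per library and was not tested. LncRNA4578, 7486 bases from Nppb on the same strand (chr4:147948334-147978301), rose in BALB/c from 0.312 ± 0.0869 CPM (SD, n = 6) to 0.596 ± 0.107 CPM (n = 4), a log2 fold change of 0.92 (SE 0.254, adjusted p = 0.0238), beside -0.08 (SE 0.255, adjusted p = 0.923) in B10.D2; the interaction was not called (95% interval -1.75 to -0.25 on the log2 scale, adjusted p = 1). It rested on 8 to 23 counts per library, and the BALB/c call was lost without SNI library 49 (adjusted p = 0.0918) or 65 (0.0631) or sham library 51 (0.0549) or 56 (0.0542). Opposite Nmb, LncRNA5322 shared 495 exonic bases with it, and LncRNA5441 lay 3977 bases away; neither was called by injury (log2 fold changes of 0.06 to 0.22).

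In rat, LncRNA364 (rn6, chr1:184188353-184188948, plus strand) is listed by the study as antisense to Calca, and it fell after SNT. Its counts were 27, 46, 44 and 23 in sham libraries 1 to 4 and 15, 0, 0 and 4 in SNT libraries 1 to 4, without overlap. The log2 fold change was -3.04 (SE 0.755, adjusted p = 0.0190; adjusted p = 0.0558 with DESeq2). It was -4.81 without SNT library 1 (SE 0.709, adjusted p = 0.00143) and -4.99 without sham library 4 as well (adjusted p = 0.000345). The call was lost without sham library 3 (-2.89, adjusted p = 0.0556) or SNT library 4 (-2.98, adjusted p = 0.0520). As a share of the counts of both strands it was 0.192% to 0.267% in sham. In SNT library 1 it was 0.109% (95% exact binomial interval 0.0611% to 0.180%) and in library 4 0.127% (0.0347% to 0.326%). In libraries 2 and 3 the counts were 0 of 667 and 0 of 1075, whose exact intervals reach up to 0.552% and 0.343%, above the sham values, so a change relative to Calca was not detectable there. In mouse LncRNA1442 was 0.248% ± 0.0389 of the counts of itself and Calca in BALB/c sham (SD, n = 6), and LncRNA1441 was 0.0783% ± 0.0168. How much of such low antisense counts comes from the strand marking of the libraries was not tested.

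Some genes that mature and store peptides fell after injury in both species. Of 6 processing genes, Pcsk2, a prohormone convertase, was the only one called in BALB/c (-0.28, SE 0.060, adjusted p = 0.00462). In B10.D2 edgeR called 0 of 6, with 2 at an unadjusted p under 0.05 and 0 by DESeq2. Of these 2, Pcsk2 was lower (-0.15) and Pam was higher (0.17). Pam was also higher, without being called, in BALB/c (0.14) and in rat (0.22). In rat Pcsk2 (-0.98, SE 0.227) and its chaperone Scg5 (-1.08, SE 0.263) fell among 4 tested. The medians of this list were -0.14 (BALB/c), -0.07 (B10.D2) and -0.51 (rat). Of 6 granins and vesicle proteins, Chga, Chgb and Cadps fell in BALB/c, by 0.32, 0.29 and 0.22 on the log2 scale, and Chga and Cadps in B10.D2, by 0.31 and 0.16. Vgf of the same list was higher without being called, at 0.55 in BALB/c and 0.23 in B10.D2. In rat 3 of the 4 tested fell: Scg2 (-2.20), Chga (-1.58) and Chgb (-1.29), while Scg3 was at -0.24 (adjusted p = 0.305). Without SNT library 1 and sham library 4 the same processing genes and granins were called in rat, with Pcsk2 at -1.29, Scg5 at -1.49, Scg2 at -3.76, Chga at -2.25 and Chgb at -1.77. In mouse strain comparisons Scg5 was lower in B10.D2, with log2 differences of -2.06 (SE 0.057) in sham and -2.02 (SE 0.060) in SNI, and Scg2 was higher, with 0.62 (SE 0.092) and 0.69 (SE 0.103).

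Receptor genes for the 6 peptides were not called after SNI: edgeR called 0 of 16 tested in BALB/c (2 at an unadjusted p under 0.05, 0 by DESeq2) and 0 of 16 in B10.D2 (0 and 0), with medians of 0.03 and 0.04. The CGRP receptor subunits did not pass, with Calcrl at -0.07 (SE 0.086) and -0.14 (SE 0.086) and Ramp1 at -0.19 (SE 0.351) and -0.06 (SE 0.359) in BALB/c and B10.D2. Tacr1, the substance P receptor, gave 0.94 (SE 0.331, adjusted p = 0.0815) in BALB/c and -0.08 (SE 0.328, adjusted p = 0.937) in B10.D2, at mean levels of 0.257 to 0.498 CPM. In rat 4 of 8 receptor genes tested were called. The somatostatin receptors Sstr3 and Sstr4 rose by 1.88 ± 0.511 and 1.74 ± 0.460 (SE, log2), Sstr1 fell by 2.11 on the log2 scale, and Npr3, a natriuretic peptide receptor that clears its ligands, rose by 1.07 ± 0.199. Calcrl (0.49, adjusted p = 0.0551) and Ramp1 (0.80, adjusted p = 0.0974) did not pass. Without SNT library 1 and sham library 4, 7 of the 8 were called: Calcrl (0.72), Ramp1 (1.16) and Npr1 (0.74) were higher in addition, and Sstr3 was at 2.88, Sstr4 at 2.50, Sstr1 at -2.44 and Npr3 at 1.35. These libraries were chosen after seeing the data, and calls rose over the whole table, to 6100 features from 3753 in the main fit. Sst itself, the ligand of the somatostatin receptors, was listed at 0 in rat.

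**Figure D5:**
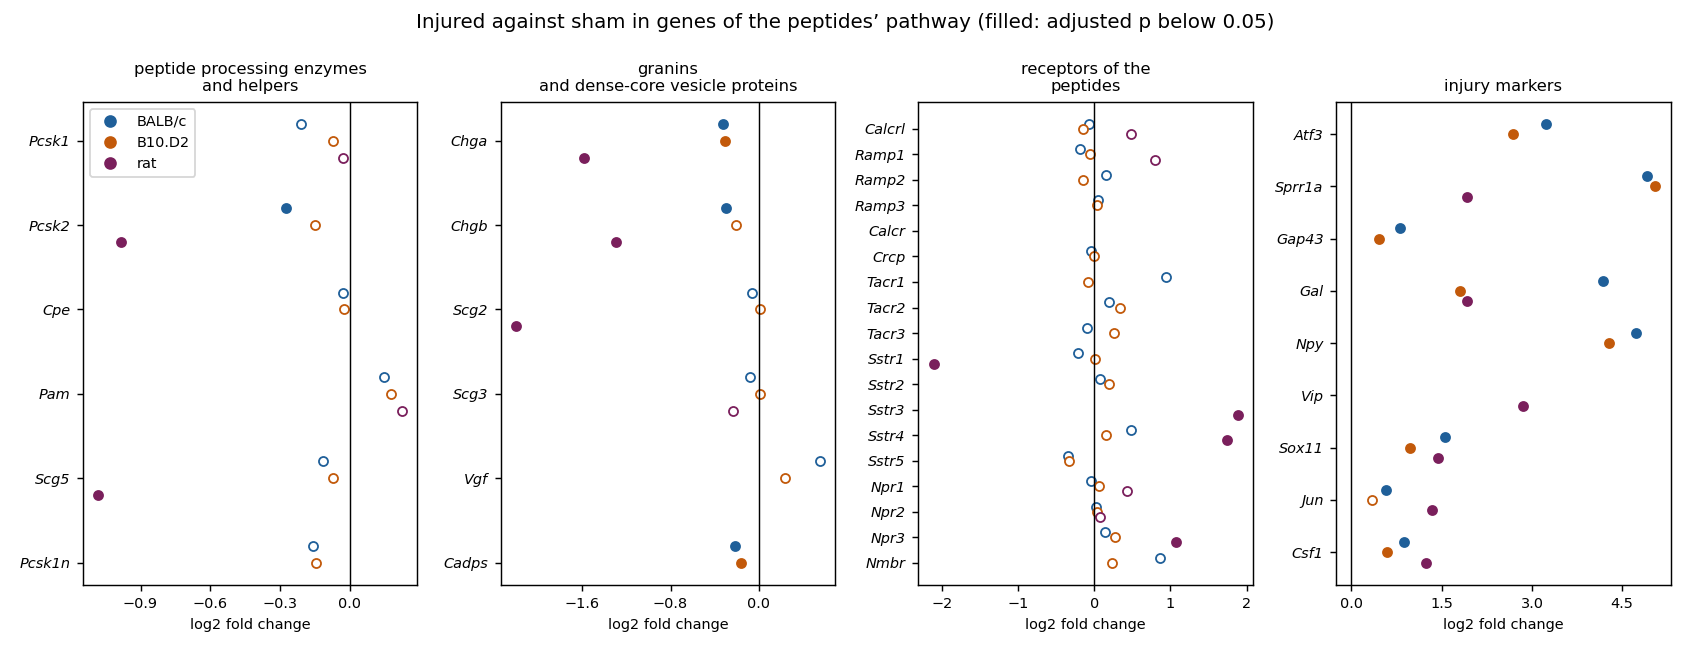
Log2 fold change of injured against sham (horizontal axes, a different scale in each panel) for processing enzymes, granins and vesicle proteins, peptide receptors and injury markers in BALB/c, B10.D2 and rat; filled symbols have an adjusted p under 0.05, and genes not tested have no symbol. The injury markers lie to the right of 0 in all 3 comparisons, and within the panel of granins and vesicle proteins the rat values of Scg2, Chga and Chgb lie furthest to the left.

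Over the 20 mouse libraries, with the 4 group means removed, Calca, Calcb and Tac1 varied together. Of 15 pairs, 6 passed an adjusted p of 0.05 by Pearson's r (100000 permutations within groups), and 4 did with sex removed as well. The strongest were Calca with Calcb (r = 0.78, p = 0.000290, adjusted p = 0.00435; Spearman's rho = 0.78, p = 0.000420), Calca with Tac1 (r = 0.78, p = 0.000720, adjusted p = 0.00540; rho = 0.74, p = 0.00123) and Calcb with Tac1 (r = 0.70, p = 0.00252, adjusted p = 0.0126; rho = 0.68, p = 0.00315). Without the 2 libraries farthest from the median of the first gene these were 0.70, 0.70 and 0.60. The other 3 pairs (Calca with Nppb, r = 0.64, Calca with Nmb, r = 0.64, and Tac1 with Nppb, r = 0.57) passed by r (adjusted p = 0.0421, 0.0453 and 0.0453) but not by rho (adjusted p = 0.104, 0.161 and 0.104), and fell to 0.39, 0.40 and 0.45 without those libraries. With sex removed, Calca with Nppb still passed by r (r = 0.72, permutation adjusted p = 0.0068). Calca with Nmb and Tac1 with Nppb then did not (adjusted p = 0.112 and 0.0538). Nmb was not correlated past the threshold with Calcb (r = 0.57, p = 0.0297, adjusted p = 0.0637; rho = 0.41, p = 0.102) or Tac1 (r = 0.22, p = 0.398, adjusted p = 0.459; rho = 0.14, p = 0.588). Sst correlated with no other member past the threshold (r from -0.46 with Nmb to 0.15 with Nppb, permutation p of 0.0706 or more). All values share library totals and the same ganglia.

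Among 14413 annotated genes with a mean of at least 1 CPM, the 3 most like each member over the same 20 libraries are given as a description. Calca was most like Asl (r = 0.93), Tro (0.90) and Lyrm9 (0.89), and Calcb most like Lpcat3 (0.88), 1810043G02Rik (0.87) and Fam19a3 (0.87). Tac1 was most like Plcxd3 (0.94), Syt1 (0.92) and Zcchc12 (0.91), and Nmb most like Gde1 (0.96), Ppm1a (0.95) and Rtfdc1 (0.91). The genes most like the scarcer members had lower values, Sox18 (0.84), Gm16976 (0.81) and Ctdspl (0.79) for Sst, and Idh1 (0.84), Osgepl1 (0.83) and Rundc3b (0.81) for Nppb. Calca and Calcb, which lie next to each other on chromosome 7, did not appear in each other's first 3.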

How the data were processed

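The deposited tables hold raw counts per gene and per assembled LncRNA. To make them, the authors sequenced pairs of 100-base reads from libraries that keep the strand, aligned them with STAR to mm10 (mouse) and rn6 (rat), and counted with HTSeq, which assigned reads by the intersection of the features they covered. The deposited result tables hold the authors' own DESeq2 comparisons, of which only the symbol column was used. Here counts were tested with edgeR 4.0.16 in R 4.3.3 (TMM factors, filterByExpr, quasi-likelihood F test, two-sided), with sex and strain by surgery in mouse and surgery alone in rat, and p-values were adjusted by the Benjamini-Hochberg method over all features. SE is the absolute log2 fold change over the square root of F. DESeq2 1.42.0 was the alternative tool. B10.D2 sham 59 and BALB/c SNI 66 were not analysed here. Lengths and positions came from GENCODE M21, and promoters from RefSeq. No rat genome was used.

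The 6 members and all gene lists were chosen with earlier results of these data known. Named genes were the members, the called genes and receptor subunits of the pathway lists, LncRNAs within 50 kb of a member or listed by the study, and the 3 genes most like each member; genes of the marker lists were named beside the rat result after their values were seen. The fits were checked on simulated counts: of features changed by 1 on the log2 scale, 83% were recovered in the BALB/c comparison (24685 features) and 44% in the rat comparison (13690 features). Of features changed by 0.5, 44% and 4% were recovered. Changes as small as the injury estimates of the mouse members were not simulated. Within groups, no libraries agreed within sampling noise (chi-square per degree of freedom of 6.90 or more). The numbers that rat sham and SNT titles share, of unstated meaning, were not used to pair the libraries in the main fit. Correlations used log2(CPM + 0.5), and the Calcb to Calca ratio a pseudocount of 0.5 counts. Intervals of log2 fold changes come from the fits and include the spread between libraries, and those of shares and the floors cover counting error only. One marker gene is not reported here.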

Additional observations from a re-analysis of the deposited data

Results flagged for a closer look

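A check for single libraries far from the rest of their group (gap over range above Dixon's limit) was made in 34 groups of the members' CPM, of which chance alone would mark about 1 in 20, and it marked 3 values. Nmb in rat SNT library 1 was 38.94 CPM, beside 2.94 to 5.31 CPM in the other 3 SNT libraries. Calca in B10.D2 sham library 88 was 1166 CPM, beside 917 to 978 CPM in the other 4. Sst in B10.D2 SNI library 76 was 3.75 CPM, beside 2.18 to 2.51 CPM in the other 4.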

How the results depend on the processing

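Settings changed counts more than directions: of the results recomputed, no called value changed sign. Within males alone and females alone, which leaves fewer samples, the features called were 415 and 902 (BALB/c SNI), 95 and 187 (B10.D2 SNI), 1 and 0 (interaction), 3077 and 2611 (strains in sham), and 2250 and 2353 (strains in SNI), and Sst was called in neither sex. For these and the other changes the cause was not tested. With no filter on low counts, 1 member was called in B10.D2 SNI (Nmb), 1 between strains in SNI (Tac1), and 222 features between the sexes. DESeq2 called 1 member in B10.D2 SNI, 10 features for the interaction and 246 between the sexes. With at least 10 counts in every library the interaction had 3 features, and with no sex term 0 members differed between strains in sham. Leaving out each library in turn gave 0 to 1 members called in either strain after SNI and between strains in sham, 665 (without SNI 90) to 1214 features in B10.D2 SNI, 3 to 6 features for the interaction, and 35 (without B10.D2 SNI 89) to 159 (without BALB/c sham 56) between the sexes. In rat it gave 1483 (without sham 3) to 5041 features (without SNT 1) and 0 to 4 members. Without rat sham library 4 and SNT library 1, chosen after seeing the data, 6100 features and 4 members were called. The log2 difference in the Calcb to Calca ratio ranged from 0.10 to 0.18 in BALB/c (exact permutation p = 0.0317 without sham 71) and from 0.032 to 0.10 in B10.D2 (p = 0.0476 without SNI 69), and in rat from 0.41 (without SNT 2) to 0.98 (without SNT 1).

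The numbers that open the rat titles, each on 1 sham and 1 SNT library, were not used as pairs in the main fit. Correlations of deviations from the group means were -0.27 to 0.05 for libraries with the same number and -0.52 to 0.47 for the others. With so few libraries these values cannot exclude a pairing. With the title number as a replicate block, 2558 features and 3 members were called (Calcb, adjusted p = 0.0383, Tac1, 0.0479, and Nmb, 0.0309, by edgeR). Rat Tac1 was also called with the size factors of DESeq2 (0.0497), with no filter (0.0421) and with at least 10 counts (0.0495). Mouse sample numbers are not shared between groups.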
